A study of Rattus norvegicus with 8 samples.

Results

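The genes of DNA replication and S phase were examined in primary rat nucleus pulposus (NP) cells, which form the soft centre of the intervertebral disc, after knockdown of the deacylase gene Sirt6. The list holds 46 genes, each found by its gene name in the deposited files, out of 32883 genes with a row of counts. All 46 had enough reads to be tested, among 13250 genes tested. The cells came from adult Sprague Dawley rats and were transduced with lentivirus. The Sirt6-KD cells received a mixture of 3 ShSirt6 clones and the Sirt6-Ctrl cells a control ShRNA (ShCtrl). Both groups were selected with puromycin and are therefore pools of transduced cells, not clones. Each group had 4 libraries, with S1 to S4 being the Sirt6-Ctrl and S5 to S8 the Sirt6-KD libraries. The series record speaks of 4 rats with a control for each knockdown, so the experiment may have been paired. The labels do not say which libraries came from the same animal, so p-values measure the spread between these libraries without any pairing.

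Levels are given as CPM, which are read counts scaled to the size of the library, after TMM normalization, which adjusts each library so that most genes keep the same level. A gene was called when edgeR's quasi-likelihood test gave an adjusted p below 0.05 and the fold change was above 1.5. Total counts were 31994838 to 40124813 per library, and 3 counts corresponded to 0.0727 to 0.0928 CPM, a floor that covers counting error only. Sirt6 itself was at 47.6 to 56.4 CPM in the controls and at 19.2 to 21.8 CPM in Sirt6-KD. Synthetic spike-in RNAs took 9.80% of the counts in S2 and 6.27% in S1, against 2.15% to 3.08% in the other 6 libraries. Of the genes tested, 1851 had under 10 reads in S2, against 281 to 785 in the other libraries. Of 17 listed symbols for NP markers, 9 had a row and were tested, and their summed level was 263 to 335 CPM in the controls and 292 to 326 CPM in Sirt6-KD. Of these, 0 were called higher and 2 lower (22.2%, against 10.7% of all genes tested), Car3 and Krt8. The median log2 fold change of the 9 was -0.43, with 3 values above 0. Car12, which was not called, had a mean of 28.4 CPM in the controls and 82.1 CPM in Sirt6-KD. It was at 17.6, 12.6, 74.6 and 8.87 CPM in S1 to S4 and at 66.3 to 89.3 CPM in Sirt6-KD, so S3 lay inside the Sirt6-KD range. The sums therefore hide the falls of Car3 and Krt8 and the spread of Car12 between controls. The defining markers Col2a1, Krt18, Krt19, Tbxt and Shh were not analysed here. Fibroblast and annulus markers summed to 14440 to 27060 CPM in the controls and 8583 to 18260 CPM in Sirt6-KD. Of 8 tested, 3 were called lower (37.5%, against 10.7% of all genes tested). Only 1 of the 8 had a log2 fold change above 0, Pdgfra at 0.82, which was not called. Col1a1, which was not called, made up most of the sum. The other 7 summed to 1156 to 1847 CPM in the controls and 489 to 797 CPM in Sirt6-KD, most of it Col3a1. Leukocyte markers, 3 of 9 tested, summed to 11.9 to 29.7 CPM and 14.96 to 23.9 CPM, and the 1 endothelial marker with a row, Tek, was at 0 to 0.592 CPM. The part of these markers in the results on replication genes was not tested.

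A cell copies its DNA once in each division. In G1 phase the origin recognition complex, with Cdc6 and Cdt1, loads the ring-shaped MCM helicase onto origins of replication. At the start of S phase Cdc45 and the GINS complex join the ring and the helicase begins to unwind DNA. Polymerase alpha-primase lays down primers, polymerases delta and epsilon extend them on the sliding clamp PCNA, RPA coats the exposed single strands, and FEN1 with DNA ligase I joins the Okazaki fragments. Many of these genes are transcribed under E2F factors, which are held back by the retinoblastoma protein in resting cells. NP cells divide rarely in the disc and divide in culture.

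Of the 46 genes, 3 were called higher in Sirt6-KD (6.52%, against 8.02% of all genes tested) and 4 were called lower (8.70%, against 10.7% of all genes tested), so neither share was above that of all genes. The genes that rose were Mcm2, Pold1 and Lig1. Those that fell were Gins2, Rfc2, Rfc5 and Fen1, which under scaling of the libraries by their spike-in counts took log2 fold changes of 0.20, 0.25, 0.09 and 0.13. That scaling moved the median of all genes from -0.02 to 0.94, and relative to this median the 4 genes were at -0.74, -0.69, -0.85 and -0.81. The remaining 39 genes were not called. The median log2 fold change of the 46 genes was 0.02, against -0.02 for all genes tested, with 24 values above 0 and 22 below. The lowest was -1.07 for Rfc5 and the highest 1.67 for Uhrf1. Every Sirt6-KD library was above every Sirt6-Ctrl library for 8 genes (17.4%, against 14.8% of all genes), and every Sirt6-KD library was below for 5 genes (10.9%, against 15.6%). In these bulk samples a change in the share of cycling cells and a change in RNA per cell cannot be told apart.

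The 7 calls depended on which libraries entered the fit. Without any one of S5, S6 or S7, edgeR called 0 of the 46 genes, with an unadjusted p under 0.05 in 12, 10 and 11 of them, while over all genes it called 1282, 1145 and 1236 instead of 2479. Without S8 the calls left were Mcm2, Pold1 and Rfc2, and without S1 they were Pold1, Lig1 and Fen1. Without S2 the number called higher went from 3 to 5, with Cdt1 and Pole added, and Rpa2 took the place of Rfc5 among the 4 called lower. Without S3, Rfc3 and Rpa1 were added to the lower genes and Rfc5 was lost, and without S4, Rrm2 took the place of Mcm2 among the higher genes. DESeq2 called 6 higher and 5 lower, and limma-voom 6 higher and 3 lower. Over all 13250 genes DESeq2 called 3148 and limma-voom 2900, against 2479 with the edgeR test. Without S1, S2, S3, S4 and S8 in turn, edgeR called 1329, 2323, 3612, 2577 and 1721 over all genes.

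**Figure D1:**
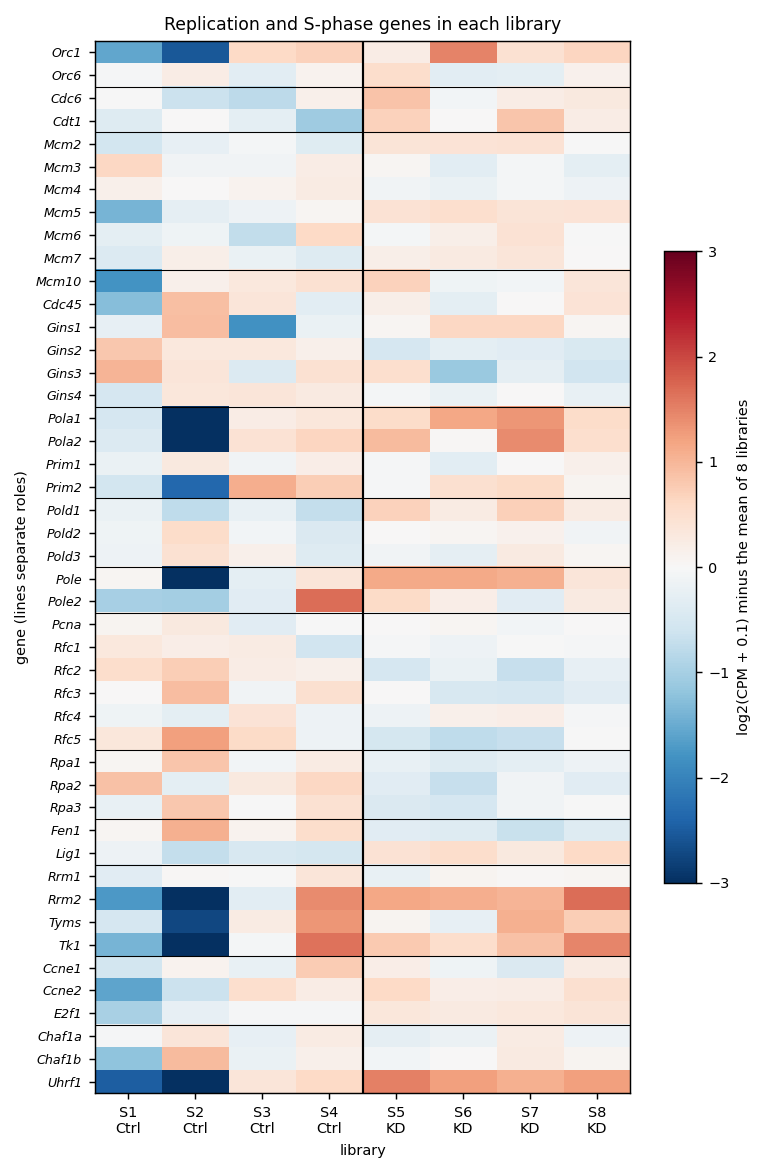
Level of each of the 46 genes in each of the 8 libraries, as log2(CPM + 0.1) minus the mean of the gene's 8 libraries, with colours limited to 3 on either side, genes in rows ordered by role and libraries in columns. S1 and S2 hold most of the dark blue cells, in genes such as Pola1, Rrm2, Tk1 and Uhrf1, while the 4 Sirt6-KD libraries resemble each other in most rows.

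The control libraries differed from each other more than the knockdown libraries did. The highest Sirt6-Ctrl level of a gene was a median of 2.05 times its lowest, against 1.41 times in Sirt6-KD. Over all genes tested these medians were 2.07 and 1.39. The Sirt6-Ctrl range was the wider for 44 of the 46 genes (95.7%, against 85.0% of all genes). For 16 genes all 4 Sirt6-KD libraries lay within the Sirt6-Ctrl range (34.8%, against 25.3% of all genes). S4 was the highest control library for 17 of the 46 genes (37.0%, against 21.3% of all genes) and S1 the lowest for 14 (30.4%, against 20.1%). S2 was the lowest for 16 and also the highest for 17, which were shares of 34.8% and 37.0% against 33.3% and 34.4% of all genes.

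For 9 genes the level in S2 was under 0.25 times the median of the other 3 control libraries (19.6%, against 15.2% of all genes). They were Orc1, Pola1, Pola2, Prim2, Pole, Rrm2, Tyms, Tk1 and Uhrf1, and this set was chosen after the values were seen, so it is described without a test. Their summed level was 23.1, 3.43, 54.6 and 93.0 CPM in S1 to S4, and 91.9, 91.8, 96.5 and 100.1 CPM in S5 to S8. S4 therefore lay among the Sirt6-KD libraries, S3 below them, and S1 and S2 far below. The other 37 genes summed to 686, 860, 691 and 718 CPM in S1 to S4, and to 690 to 733 CPM in Sirt6-KD, so that S2 was the highest library by this sum. A list of 17 mitosis genes summed to 49.7, 63.7, 142 and 222 CPM in S1 to S4, against 238 to 265 CPM in Sirt6-KD. Mki67, the gene of the proliferation marker Ki-67, was at 5.34, 4.73, 21.0 and 18.7 CPM in S1 to S4 and at 40.9 to 44.4 CPM in Sirt6-KD. S1 and S2, the controls lowest in the mitosis sum, also had the highest spike-in shares. The sums of the 9 and of the other 37 genes cannot show such a link for S2, because the genes were divided by their S2 level. With both sets summed, S1 was the lowest library at 709 CPM and S2 the highest at 863 CPM. The part of these levels or of the spike-in shares in the results was not tested.

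**Figure D2:**
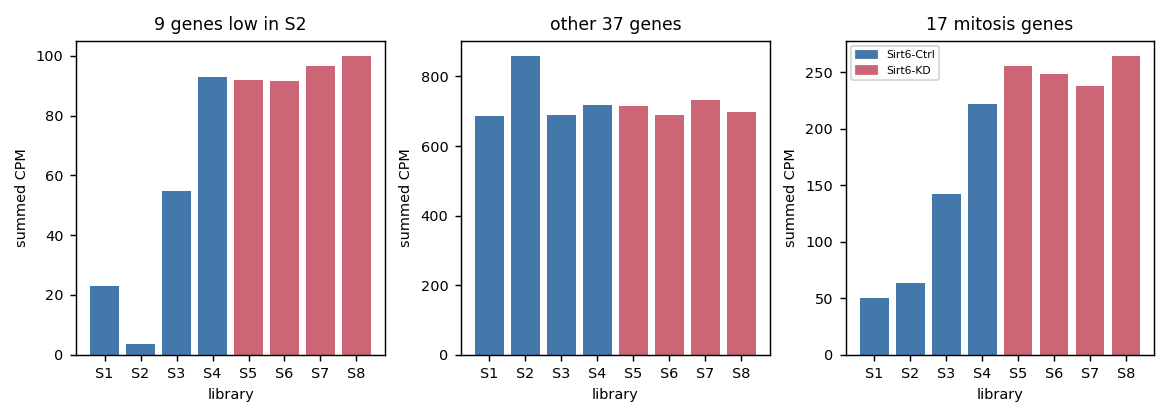
Summed CPM in each library of the 9 genes low in S2 (left), of the other 37 replication and S-phase genes (middle) and of 17 mitosis genes (right), with Sirt6-Ctrl in blue and Sirt6-KD in red, all axes starting at 0. The genes of the left and middle sums were divided by their S2 level, so the low S2 in the left sum follows from that choice. The left sum runs from 3.43 CPM in S2 to 100.1 CPM in S8, and the middle sum from 686 to 860 CPM.

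The calls moved with the choice of controls. Without S1 and S2, the control libraries with the highest spike-in share, Pold1, Lig1 and Uhrf1 were called higher (3 of 46, 6.52%, against 5.71% of all genes) and Gins2, Rpa2 and Fen1 lower (3 of 46, 6.52%, against 5% of all genes). Without S3 and S4, 11 of the 46 were called higher (23.9%, against 17.6% of all genes), namely Orc1, Mcm2, Mcm5, Pola1, Pold1, Lig1, Rrm2, Tk1, Ccne2, E2f1 and Uhrf1. Of these, Orc1, Pola1, Rrm2, Tk1 and Uhrf1 belong to the 9 genes picked for a low S2 level. S2 was kept in that fit, so their calls there are not independent of that choice. In that setting 5 were called lower (10.9%, against 17.1% of all genes), namely Gins2, Rfc2, Rfc5, Rpa1 and Fen1. Pold1, Lig1, Gins2 and Fen1 were thus called against either pair of controls.

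In the origin recognition complex, which marks the sites where the helicase is loaded, the list holds Orc1 and Orc6, and neither was called. Orc1, the largest subunit, was at 0.402, 0.155, 2.12 and 2.28 CPM in S1 to S4 and at 1.62, 4.03, 1.93 and 2.22 CPM in S5 to S8. Its S1 and S2 levels came from 14 and 5 reads and lay below all other libraries, while S3 and S4 lay within the Sirt6-KD range. Its log2 fold change was 0.98 with a standard error of 0.82 (edgeR, adjusted p = 0.421), and it was 3.11 against S1 and S2 alone. Orc6 was at 3.42 to 5.01 CPM in the controls and 3.40 to 6.25 CPM in Sirt6-KD. Cdc6, the ATPase that joins the complex to load MCM, was at 1.77 to 3.47 CPM and 2.96 to 5.67 CPM, with overlapping groups.

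Cdt1, the loading factor that brings MCM to origins and is destroyed once S phase begins, was at 5.43, 7.17, 5.80 and 3.39 CPM in S1 to S4 and at 11.6, 7.23, 12.9 and 8.35 CPM in S5 to S8. All Sirt6-KD libraries were above all controls, but S6 only just above S2. On the log2 scale the fold change was 0.88 (standard error 0.32), which missed the threshold (adjusted p = 0.0748, edgeR). Without S2 the value was 1.05 and Cdt1 was called.

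Of the 6 subunits of the MCM2-7 helicase, 1 was called higher (16.7%, against 8.02% of all genes) and 0 lower. This count is too small to set the helicase apart, and the 6 did not move together. Mcm2 was at 28.2, 34.4, 39.5 and 32.0 CPM in S1 to S4 and at 53.8, 54.5, 55.1 and 41.0 CPM in S5 to S8. Every Sirt6-KD library was above every control, with S8 close to S3 and apart from the other 3. Mcm2 rose from 33.5 ± 4.74 to 51.1 ± 6.76 CPM (mean ± SD, n = 4 libraries each), which was 0.61 on the log2 scale (standard error 0.16; edgeR, adjusted p = 0.0242). The call was lost without S1, S4, S5, S6 or S7, with values from 0.56 to 0.74 over all libraries left out in turn, and without S1 and S2 together, where the value was 0.52.

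Mcm5 was at 4.57, 10.1, 10.9 and 12.6 CPM in S1 to S4 and at 16.5, 17.4, 16.0 and 16.3 CPM in S5 to S8. The groups did not overlap, and S1 was the lowest by far. Its log2 fold change of 0.79 missed the threshold (adjusted p = 0.0782, edgeR), but DESeq2, limma-voom and the fit without S3 and S4 called it higher. Mcm4 had the opposite order, with 29.0 to 34.2 CPM in the controls and 25.03 to 27.6 CPM in Sirt6-KD, all Sirt6-KD libraries below all controls (adjusted p = 0.199, edgeR). Mcm7 was at 40.0 to 60.0 CPM in the controls and 54.0 to 69.1 CPM in Sirt6-KD, and only the S2 control reached the Sirt6-KD range. Mcm3 was at 14.8 to 24.6 CPM and 12.8 to 16.8 CPM. Mcm6 was at 10.8 to 27.4 CPM and 17.4 to 24.4 CPM, with all Sirt6-KD libraries inside the control range. The 6 proteins form 1 ring, and what was measured here is the RNA of each gene.

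Among the 6 genes that turn the loaded ring into an active helicase, 1 was called lower (16.7%, against 10.7% of all genes) and 0 higher. This count is too small to set the group apart. Gins2, a subunit of the GINS complex, was at 28.2, 20.2, 20.1 and 18.0 CPM in S1 to S4 and at 11.4, 13.2, 12.7 and 11.7 CPM in S5 to S8. The groups were well apart, and the highest control was S1. Gins2 fell from 21.6 ± 4.47 to 12.2 ± 0.839 CPM (mean ± SD, n = 4 libraries each), which was -0.82 on the log2 scale (standard error 0.20; edgeR, adjusted p = 0.0182), the smallest adjusted p of the 46 genes. The call was lost without S1, where the value was -0.64, and without any one of the Sirt6-KD libraries. Gins2 overlaps Gse1 in the annotation, and the strand setting of the counting is not given in the sources used here, so some reads may be shared.

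The other GINS subunits had overlapping groups. Gins1 was at 0.471 to 3.68 CPM in the controls and 1.97 to 2.97 CPM in Sirt6-KD, with S3 lowest and S2 highest. Gins3 was at 1.97 to 5.46 CPM and 1.17 to 3.82 CPM. Gins4 was at 5.80 CPM in S1 and 9.99 to 10.6 CPM in the other controls, and at 6.98 to 8.34 CPM in Sirt6-KD. Cdc45, which bridges GINS and the MCM ring, was at 1.29, 6.25, 4.24 and 2.62 CPM in S1 to S4 and at 2.66 to 4.38 CPM in Sirt6-KD. Mcm10, which acts at the step of unwinding, was at 0.747 CPM in S1 and 3.19 to 3.98 CPM in the other controls, against 2.60 to 4.69 CPM in Sirt6-KD. S1 was thus the lowest control for Cdc45, Gins4 and Mcm10, while S2, low for the 9 genes above, was not low for any of these 3.

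The promoters of these genes were searched for the letters of the E2F binding sequence, because E2F control is the textbook link between them. Promoter sequence from RefSeq (assembly GRCr8) was found for 38 of the 46 genes, and only the 250 bases before the start of each gene were searched. The first entry of each gene name was used. All promoters with an entry, also those of genes not tested here, served as the comparison. Orc1, Cdc6, Mcm4, Gins4, Rpa3, Rrm2, Ccne2 and E2f1 had no entry. The letters TTTCCCGC, TTTCGCGC, TTTGCCGC or TTTGGCGC, on either strand, were present in 8 of 38 (21.1%), against 1.81% of 27457 promoters. The 8 are shown here by 80 bases each around the match nearest to the start, 5′ to 3′ on the strand of the gene, with the matched letters in capitals. In Mcm2, Mcm6 and Gins1 the matches on both strands overlap and are marked as 1 run.

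Mcm2, chr4:122918095-122918174, minus strand: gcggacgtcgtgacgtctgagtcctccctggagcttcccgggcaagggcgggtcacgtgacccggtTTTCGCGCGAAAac
Mcm5, chr19:13488733-13488812, plus strand: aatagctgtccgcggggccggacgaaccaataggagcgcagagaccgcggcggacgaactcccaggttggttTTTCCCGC
Mcm6, chr13:42404444-42404523, minus strand: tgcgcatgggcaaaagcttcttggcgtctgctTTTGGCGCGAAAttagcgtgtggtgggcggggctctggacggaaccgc
Mcm7, chr12:22163187-22163266, minus strand: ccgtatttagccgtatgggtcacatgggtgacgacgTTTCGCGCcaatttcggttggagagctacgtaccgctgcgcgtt
Gins1, chr3:160184840-160184919, plus strand: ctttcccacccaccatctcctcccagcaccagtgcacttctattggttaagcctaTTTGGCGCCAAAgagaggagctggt
Gins3, chr19:9434680-9434759, minus strand: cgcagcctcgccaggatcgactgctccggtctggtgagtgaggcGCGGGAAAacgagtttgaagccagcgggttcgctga
Pola1, chrX:62342484-62342563, minus strand: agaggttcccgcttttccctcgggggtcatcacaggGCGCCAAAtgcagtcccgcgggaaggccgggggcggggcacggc
Tyms, chr9:120776084-120776163, minus strand: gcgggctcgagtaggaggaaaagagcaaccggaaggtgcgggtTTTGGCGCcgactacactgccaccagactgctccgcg

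Counted from the base before the start, the nearest match began 8 bases upstream in Mcm5, 10 in Mcm2, 21 in Gins1, 36 in Gins3, 37 in Tyms, 52 in Mcm7, 135 in Mcm6 and 172 in Pola1. Of the 3 genes called higher 1 held the letters, Mcm2, and of the 4 called lower 0 did, and this difference was not tested. Of the 9 genes low in S2, 7 had a promoter entry and 2 held the letters, Pola1 and Tyms, against 6 of the 31 other genes with an entry. The CCAAT letters were in 55.3% of the 38 (34.3% of all promoters), the GC box letters GGGCGG in 63.2% (32.4%) and the CHR letters TTTGAA in 7.89% (16.0%), each on either strand. A match is a description of the letters in this window and not a measured site.

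Polymerase alpha-primase, which starts every new strand with a primer, had 0 of 4 genes called. Pola1, the catalytic subunit, was at 4.57, 0.433, 7.65 and 8.29 CPM in S1 to S4 and at 9.67, 14.8, 16.7 and 9.65 CPM in S5 to S8. All Sirt6-KD libraries were above all controls, and S2, with 14 reads, was far below the other controls. The mean was 5.24 ± 3.59 CPM in the controls and 12.7 ± 3.58 CPM in Sirt6-KD (mean ± SD, n = 4 libraries each). The log2 fold change of 1.27 had a standard error of 0.64 and did not pass (adjusted p = 0.179, edgeR), and against S1 and S2 alone it was 2.34 and called.

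Pola2, the second subunit of the polymerase, was at 1.35, 0.0619, 2.53 and 2.96 CPM in S1 to S4, where the S2 level was 2 reads, under the floor of 3 counts, and at 1.88 to 5.08 CPM in Sirt6-KD. Prim2, the large subunit of primase, was at 3.28, 0.866, 10.4 and 8.17 CPM in S1 to S4 and at 4.75 to 7.27 CPM in Sirt6-KD, inside the control range. Prim1, the small subunit that makes the primer, was at 19.8, 28.0, 21.4 and 26.4 CPM in S1 to S4 and at 18.4 to 25.4 CPM in Sirt6-KD. S2 was thus the lowest control for 3 genes of the complex and the highest for Prim1.

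Polymerase delta, the main lagging-strand polymerase, had 1 of 3 genes called higher (33.3%, against 8.02% of all genes). This count is too small to set the polymerase apart. Pold1, its catalytic subunit, was at 8.91, 6.03, 8.89 and 6.28 CPM in S1 to S4 and at 16.6, 12.2, 16.97 and 12.3 CPM in S5 to S8. The lowest Sirt6-KD library was above the highest control. Pold1 rose from 7.53 ± 1.59 to 14.5 ± 2.63 CPM (mean ± SD, n = 4 libraries each), which was 0.95 on the log2 scale (standard error 0.25; edgeR, adjusted p = 0.0237). The value was 0.86 to 1.06 with each library left out, and the call was lost only without S5, S6 or S7 among these. The accessory subunits did not share the rise. Pold2 was at 19.5 to 38.5 CPM in the controls and 24.2 to 28.9 CPM in Sirt6-KD, and Pold3 was at 15.7 to 28.7 CPM and 17.1 to 24.9 CPM, each with S2 highest and all Sirt6-KD libraries inside the control range.

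Polymerase epsilon, the leading-strand polymerase, had 0 of 2 genes called. Pole, its catalytic subunit, was at 5.20, 0.247, 4.06 and 6.45 CPM in S1 to S4 and at 11.1, 11.02, 10.5 and 6.39 CPM in S5 to S8. S2 stood far below the other controls with 8 reads, and S8 was just below S4, so the groups overlapped. The log2 fold change was 1.29 with a standard error of 0.68 (edgeR, adjusted p = 0.196), and without S2 it was 0.91 and called. Pole2 was at 0.371 to 0.648 CPM in S1 to S3 and 2.91 CPM in S4, against 0.652 to 1.30 CPM in Sirt6-KD. Pole2 overlaps Klhdc1 in the annotation.

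**Figure D3:**
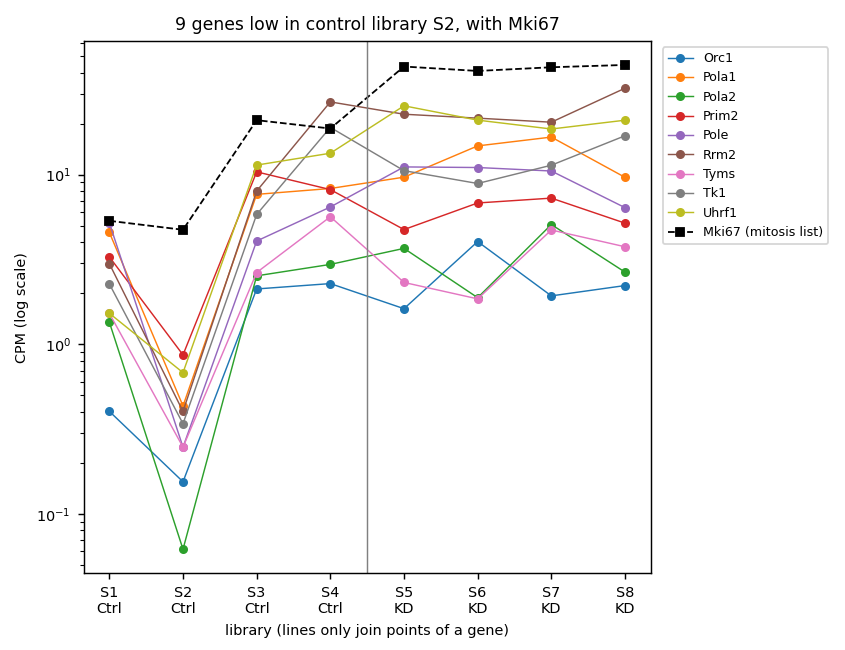
CPM on a log axis in each library for the 9 replication genes whose S2 level was under 0.25 times the median of the other controls, with Mki67 as black squares, the line between S4 and S5 separating Sirt6-Ctrl from Sirt6-KD. The 9 were chosen by their low S2 level, so the low points in S2 follow from that choice, and 15.2% of all genes tested met it. The S2 levels run from 0.0619 CPM for Pola2 to 0.866 CPM for Prim2. In S4, Prim2, Tk1 and Tyms are above all Sirt6-KD libraries, Orc1, Pola2, Pole and Rrm2 are within the Sirt6-KD range, and Pola1 and Uhrf1 are below it.

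The sliding clamp and its loader, replication factor C, had 2 of 6 genes called lower and 0 higher, both of them small loader subunits (33.3%, against 10.7% of all genes called lower, and a count too small to set the complex apart). Rfc2 was at 25.6, 29.4, 20.5 and 19.6 CPM in S1 to S4 and at 12.5, 15.3, 10.9 and 14.9 CPM in S5 to S8, and the groups did not overlap. Rfc2 fell from 23.7 ± 4.58 to 13.4 ± 2.06 CPM (mean ± SD, n = 4 libraries each), which was -0.83 on the log2 scale (standard error 0.21; edgeR, adjusted p = 0.0201). The call was lost without S1, S5, S6 or S7, and without S1 and S2 together, where the value was -0.57.

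Rfc5 was at 11.7, 21.9, 13.9 and 8.36 CPM in S1 to S4 and at 6.34, 5.41, 5.66 and 9.23 CPM in S5 to S8. S8 was above S4, so the groups overlapped, and S2 was the highest library. Rfc5 fell from 14.0 ± 5.76 to 6.66 ± 1.76 CPM (mean ± SD, n = 4 libraries each), which was -1.07 on the log2 scale (standard error 0.33; edgeR, adjusted p = 0.0429). This call was the least stable of the 7, lost when any single library other than S4 was left out, and without S2 the value was -0.75.

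Rfc3 was at 10.1 to 20.6 CPM in the controls and 7.66 to 10.9 CPM in Sirt6-KD, overlapping only through S5. Rfc1, the large subunit, was at 77.2 to 83.8 CPM in S1 to S3 and 45.1 CPM in S4, against 59.9 to 66.7 CPM in Sirt6-KD. Rfc4 was at 11.1 to 18.3 CPM and 12.3 to 15.7 CPM. Pcna, the clamp itself and a common marker of S phase, was at 89.8, 104, 66.8 and 83.6 CPM in S1 to S4 and at 85.5, 87.5, 79.7 and 84.7 CPM in S5 to S8. All 4 Sirt6-KD libraries lay inside the control range for Pcna, and S2, low in Mki67, was the highest library. The mean of Pcna was 86.0 ± 15.4 CPM in the controls and 84.3 ± 3.30 CPM in Sirt6-KD (mean ± SD, n = 4 libraries each).

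Replication protein A, the trimer that coats single-stranded DNA, had 0 of 3 genes called. Rpa1, the large subunit, was at 59.8, 103, 54.4 and 68.0 CPM in S1 to S4 and at 49.5, 44.4, 46.9 and 51.7 CPM in S5 to S8. All Sirt6-KD libraries were below all controls, by little for S3, and S2 was highest. The log2 fold change was -0.57 with a standard error of 0.20 (edgeR, adjusted p = 0.0619), and Rpa1 was called without S3 at -0.68. Under scaling by spike-ins it was 0.53, which was -0.41 relative to the median of 0.94 of all genes. Rpa2 was at 7.98 to 18.1 CPM in the controls and 6.06 to 9.12 CPM in Sirt6-KD, with S2 the only control within the Sirt6-KD range. Rpa3 was at 10.3 to 21.1 CPM and 8.42 to 11.8 CPM.

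The last steps of the lagging strand, with 2 genes listed, gave 1 called higher and 1 called lower. Each was 50% of the 2, against 8.02% of all genes called higher and 10.7% lower, and too small a count to set these steps apart. Fen1, the nuclease that trims the flap at the end of an Okazaki fragment, was at 16.2, 33.1, 16.96 and 22.7 CPM in S1 to S4 and at 12.3, 12.0, 9.91 and 12.0 CPM in S5 to S8. The groups did not overlap, and S2 was the highest library. Fen1 fell from 22.2 ± 7.80 to 11.6 ± 1.11 CPM (mean ± SD, n = 4 libraries each), which was -0.95 on the log2 scale (standard error 0.25; edgeR, adjusted p = 0.0252). Lig1, the ligase that seals the remaining nick, was at 8.42, 5.60, 6.68 and 6.42 CPM in S1 to S4 and at 12.6, 13.5, 11.5 and 14.2 CPM in S5 to S8. For Lig1 every Sirt6-KD library was above every control, and S1 was the highest control. Lig1 rose from 6.78 ± 1.19 to 12.9 ± 1.16 CPM (mean ± SD, n = 4 libraries each), which was 0.93 on the log2 scale (standard error 0.23; edgeR, adjusted p = 0.0197). Both calls were lost without any one Sirt6-KD library and kept without any one control, with values of -1.06 to -0.68 for Fen1 and 0.86 to 1.08 for Lig1. Fen1 overlaps Tmem258 and Lig1 overlaps Zswim9 in the annotation.

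**Figure D4:**
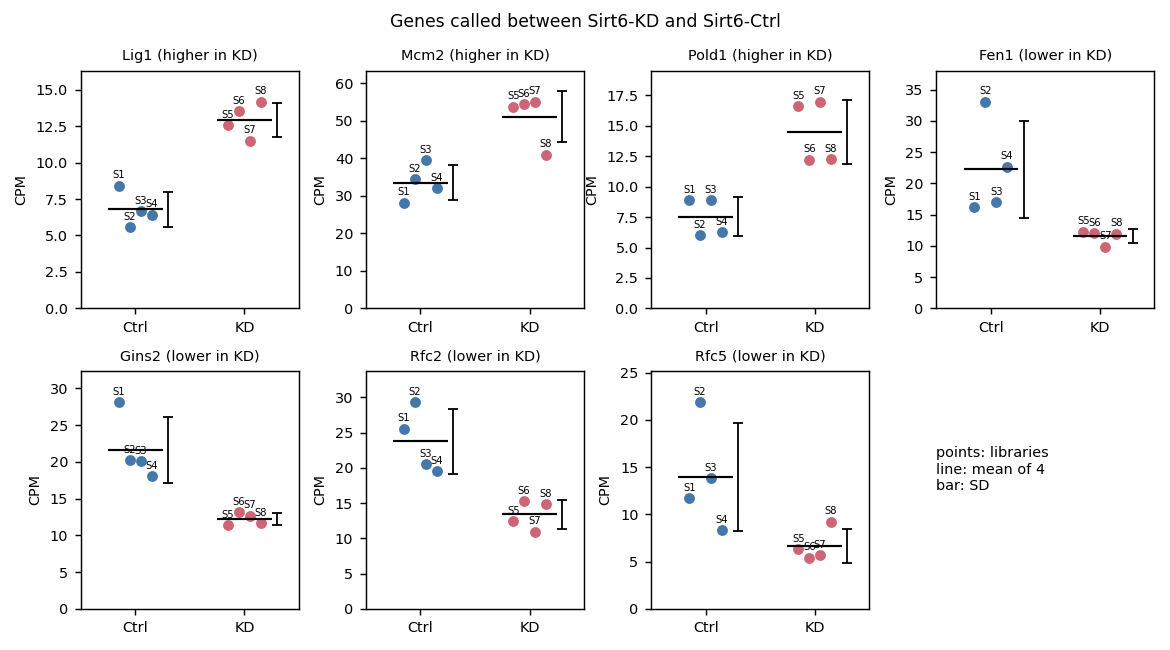
CPM of the 7 called genes by library (points, labelled S1 to S8), with the mean of 4 libraries as a line and the SD as a bar, Sirt6-Ctrl in blue and Sirt6-KD in red, all axes starting at 0. The groups are apart for 6 genes and overlap for Rfc5, where S8 at 9.23 CPM is above S4 at 8.36 CPM, and the 4 genes lower in Sirt6-KD were above 0 but below the median of 0.94 of all genes under scaling by spike-ins.

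The enzymes of nucleotide supply had 0 of 4 genes called and the widest control range of all roles. Rrm2, the subunit of ribonucleotide reductase made in S phase, was at 2.99, 0.402, 8.01 and 26.9 CPM in S1 to S4 and at 22.7, 21.5, 20.4 and 32.3 CPM in S5 to S8. The highest control was 66.8 times the lowest, S4 lay among the Sirt6-KD libraries, and S1 to S3 lay below them. Its log2 fold change was 1.34 with a standard error of 0.84 (edgeR, adjusted p = 0.277), and without S4 it was 2.67 and called. The limma-voom value was 2.36, also called. Rrm2 overlaps Cys1 in the annotation. Rrm1, the subunit present throughout the cycle, was at 34.4 to 56.8 CPM in the controls and 37.9 to 46.8 CPM in Sirt6-KD, inside the control range.

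Tk1, the thymidine kinase of the salvage pathway, was at 2.27, 0.340, 5.83 and 19.0 CPM in S1 to S4 and at 10.6, 8.87, 11.4 and 16.96 CPM in S5 to S8. Here S4 was above all Sirt6-KD libraries and S1 to S3 were below all of them. Tyms, thymidylate synthase, was at 1.52, 0.247, 2.65 and 5.65 CPM in S1 to S4 and at 1.85 to 4.72 CPM in Sirt6-KD. The order S2, S1, S3, S4 from low to high held for Rrm2, Tk1 and Tyms alike.

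Of the regulators of S-phase entry, 0 of 3 were called. E2f1, the activating E2F factor, was at 8.45, 14.1, 16.2 and 16.5 CPM in S1 to S4 and at 21.2, 20.1, 21.0 and 21.9 CPM in S5 to S8. The groups did not overlap, and S1 was the lowest control. For E2f1 the log2 fold change was 0.61 with a standard error of 0.23 (edgeR, adjusted p = 0.0823), and DESeq2 called it at 0.62. Ccne1 and Ccne2, the cyclins E that activate Cdk2, had overlapping groups. Ccne2 was at 3.30, 6.46, 14.5 and 11.9 CPM in S1 to S4 and at 11.7 to 15.3 CPM in Sirt6-KD, and Ccne1 was at 3.48 to 8.78 CPM and 3.75 to 6.07 CPM. Ccne2 overlaps Ints8 in the annotation.

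Of the genes that copy chromatin behind the fork, 0 of 3 were called. Uhrf1, which reads hemimethylated DNA and recruits the methyltransferase Dnmt1, was at 1.52, 0.680, 11.4 and 13.4 CPM in S1 to S4 and at 25.5, 21.0, 18.6 and 20.9 CPM in S5 to S8. The groups did not overlap, and S1 and S2 were far below S3 and S4. Its mean was 6.74 ± 6.58 CPM in the controls and 21.5 ± 2.88 CPM in Sirt6-KD (mean ± SD, n = 4 libraries each), and the log2 fold change of 1.67, the highest of the 46, had a standard error of 0.74 (adjusted p = 0.128, edgeR). It was 0.81 and called without S1 and S2, and 4.27 and called without S3 and S4. With limma-voom it was 2.45 and called. Uhrf1 overlaps Arrdc5 in the annotation. Chaf1a and Chaf1b, subunits of the histone chaperone CAF-1, had overlapping groups. Chaf1a was at 13.9 to 21.3 CPM in the controls and 13.6 to 19.6 CPM in Sirt6-KD, and Chaf1b was at 1.12 to 5.35 CPM and 2.55 to 3.31 CPM.

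**Figure D5:**
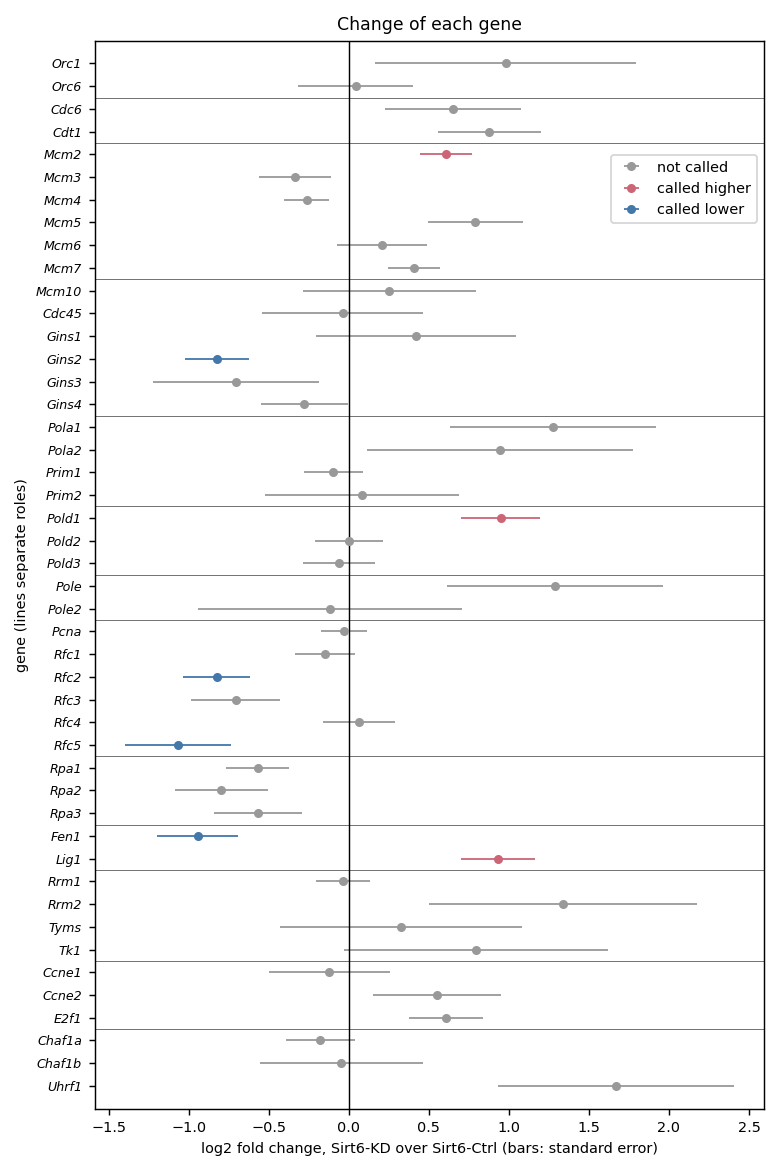
Log2 fold change, Sirt6-KD against the controls, for each of the 46 genes, with the standard error as a bar, ordered by role, called genes in red (higher) or blue (lower) and the others in grey. Values lie on both sides of 0 within most roles, from -1.07 for Rfc5 to 1.67 for Uhrf1, and under scaling by spike-ins the blue points were at 0.09 to 0.25, below the median of 0.94 of all genes.

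Genes of the same pathways outside the 46 were counted by the same rule, beside which 8.02% of all genes tested were called higher and 10.7% lower. Of 10 other genes of origin licensing, 1 was called higher and 0 lower, with a median log2 fold change of 0.36. The called gene was Orc3, a core subunit of the origin recognition complex, which rose from 17.9 ± 3.45 to 32.5 ± 3.09 CPM (mean ± SD, n = 4 libraries each; adjusted p = 0.0109, edgeR). Of 26 fork and checkpoint genes tested, 1 was called higher, Hus1 of the checkpoint clamp, and 1 lower, Chtf8 of an alternative clamp loader, with a median of 0.05. Of 10 other nucleotide genes, 0 were called higher and 2 lower, with a median of -0.15. These were Dtymk, thymidylate kinase, which fell from 47.1 ± 21.9 to 25.3 ± 1.92 CPM, and Nme1, a nucleoside diphosphate kinase, which fell from 161 ± 54.4 to 94.9 ± 15.9 CPM (mean ± SD, n = 4 libraries each). Chtf8, Dtymk and Nme1 took log2 fold changes of 0.33, 0.32 and 0.38 under scaling by spike-ins, which were -0.62, -0.62 and -0.57 relative to the median of 0.94 of all genes. Of 8 other genes of chromatin copying tested, 1 was called higher, Dnmt1, the maintenance DNA methyltransferase, which rose from 30.8 ± 1.45 to 49.4 ± 4.59 CPM (mean ± SD, n = 4 libraries each; adjusted p = 0.00845, edgeR).

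Upstream of replication, 1 of 12 E2F, DP and pocket protein genes was called higher and 0 lower. It was Rb1, which encodes the retinoblastoma protein that restrains E2F. Rb1 was at 6.84, 13.6, 24.6 and 16.2 CPM in S1 to S4 and at 37.8, 35.6, 34.6 and 31.0 CPM in S5 to S8, so that every Sirt6-KD library was above every control. Its log2 fold change was 1.18 with a standard error of 0.32 (edgeR, adjusted p = 0.0254). Of 10 G1/S kinases, cyclins and phosphatases, 1 was called higher and 0 lower. Cdk6, a kinase that phosphorylates the retinoblastoma protein, was at 2.99, 2.54, 11.9 and 10.3 CPM in S1 to S4 and at 22.1, 22.9, 39.5 and 25.1 CPM in S5 to S8. Its log2 fold change was 1.99 with a standard error of 0.49 (edgeR, adjusted p = 0.0189). Downstream, 2 of 17 mitosis genes were called higher and 0 lower, Mki67 at a log2 fold change of 1.79 and Cenpf, a kinetochore protein gene, at 1.68. The median of the mitosis list was 0.98, with 16 of 17 values above 0 and 6 whose Sirt6-KD libraries were all above the controls (35.3%, against 14.8% of all genes). The share called higher was 11.8%, against 8.02% of all genes.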

How the data were processed

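RNA from Sirt6-KD and Sirt6-Ctrl NP cells (4 libraries each) was sequenced. The values deposited by the authors are raw counts, without normalization, for Ensembl genes and spike-ins (32975 rows). The submitters' processing notes name Trimmomatic 0.36, STAR 2.5.2b, featureCounts of Subread 1.5.2, DESeq2 and the build Rnor_6.0. Counting by gene can split or share reads of overlapping genes. A second deposited table holds the authors' fold changes, p-values, adjusted p-values and normalized values. Only its identifiers and gene names were used, and 72 genes tested had no name.

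Low rows were removed with filterByExpr of edgeR 4.0.16 (R 4.3.3), which left 13313 rows, 63 of them spike-ins (92 before the filter). Libraries were TMM-normalized and tested two-sided with glmQLFit and glmQLFTest, group only, with Benjamini-Hochberg adjustment over all rows. The standard error was derived from the log2 fold change and its F statistic. On simulated data with known changes, the median estimate was close to the simulated size, but the test called a smaller share of the changed genes than first required, and that requirement was then lowered. A gene that was not called is thus not shown to be unchanged. Alternatives were DESeq2 1.42.0, voom of limma 3.58.1, glmTreat, other scalings (among them by spike-in counts) and filters, and libraries left out. The 46 genes, their roles and the other gene lists were chosen with earlier results of these data known. Genes with full statistics were those called and, in each role, the gene with the smallest adjusted p. Of other lists at most 3 called genes with the smallest p were named, and Mcm4 and Mcm5 were given a p after their values were seen. Overlapping genes were looked up by name in RefSeq's GRCr8 annotation. Depth was 31994838 to 40124813 counts per library, and without molecular identifiers reads may be copies of one molecule.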

Additional observations from a re-analysis of the deposited data

Results flagged for a closer look

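In 6 of 92 groups of 4 libraries (46 genes in Sirt6-Ctrl and in Sirt6-KD), 1 library stood apart from the other 3 by more than Dixon's 95% limit for the gap divided by the range. Chance gives about 1 in 20, or 4.6 groups. S8 was the low library of Sirt6-KD for Mcm2 (0.907; 41.0 CPM against 53.8 to 55.1) and for Pole (0.871; 6.39 CPM against 10.5 to 11.1). S7 was low for Fen1 in Sirt6-KD (0.856; 9.91 CPM against 12.0 to 12.3). In Sirt6-Ctrl, S1 was low for Gins4 (0.873; 5.80 CPM against 9.99 to 10.6), S4 was high for Pole2 (0.891; 2.91 CPM against 0.371 to 0.648), and S4 was low for Rfc1 (0.830; 45.1 CPM against 77.2 to 83.8). Mcm2 and Fen1 are called genes, and the library that stood apart lay on the side of the other group for Mcm2 and away from it for Fen1.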

How the results depend on the processing

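The series record speaks of 4 rats, each with its own control. No paired analysis was possible because neither the labels nor the count columns carry a rat number shared between the groups. The counts of called genes changed most. Scaling by spike-in counts and glmTreat, with its null set at a 1.5-fold change, left 0 higher and 0 lower (unadjusted p under 0.05 in 14 and 6 genes). DESeq2 and limma-voom gave 6 higher, and leaving out S3 and S4 gave 11 higher. Over all genes, higher and lower together, spike-in scaling called 24, glmTreat 277, DESeq2 3148, limma-voom 2900 and the fit without S3 and S4 4862. With each library left out in turn, 0 to 5 genes were called higher and 0 to 5 lower, against 3 and 4 with all libraries. The median log2 fold change of the 46 genes was -0.02 to 0.14 with a library left out and 1.04 under spike-in scaling, where that of all genes was 0.94. Sirt6 was at -1.40 to -1.29 with a library left out and at -0.36 under spike-in scaling, where it was not called. Spike-in scaling turned Gins2 to 0.20, Rfc2 to 0.25, Rfc5 to 0.094, Rpa1 to 0.53 and Fen1 to 0.13, all below the median of all genes under that scaling. The cause of these changes was not tested beyond the fewer libraries or the other scaling of each setting. Over 15 genes with full statistics and 20 settings (300 values), 231 kept their direction and side of the threshold. Of the rest, 48 lost the call and 16 gained it. The 5 with another sign are those just given, under the scaling that raised the median of all genes. The 231 include genes that were not called at first and stayed so. The 7 called genes kept their call in 7 (Rfc5) to 15 (Pold1) of the 20 settings. A setting that only dropped the fold limit reused the fit behind the calls, so its log2 fold changes were fixed. Pola2, Orc1, Pole and Tyms had 2, 5, 8 and 8 reads in S2, so counting error limits their S2 levels, although S2 was not the shallowest library (38506289 counts).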
